A study of Homo sapiens with 9 samples.

Results

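The 34 genes described here encode enzymes and carriers of purine, pyrimidine, serine and folate one-carbon metabolism. They were listed by name, with earlier results of these data known, so their shares set against all genes are descriptive. Each was read at its brightest probe set, by the mean of all 9 arrays. Of the 34 listed genes, 33 had a probe set annotated to them alone, out of 18132 such genes on the array. The exception was NME1, a nucleoside diphosphate kinase, whose probe set is also annotated to a readthrough transcript with its neighbour and is therefore given no value. RNA came from MDA-MB231 cells, a mesenchymal-like line established from a human breast cancer. Cells were plated at 70% confluency in DMEM with 10% serum, received fresh medium with an agent the next day and were lysed 24 h later, at 90% confluency per the labels. There were 3 arrays of cells given PD325901, a MEK inhibitor, at 3 µM. Another 2 arrays held cells given BB94 (batimastat), an inhibitor of metalloproteinases, at 10 µM. The remaining 4 arrays were controls in 0.1% DMSO. The labels call the arrays of a group biological replicates and give no batch or date. The study concerned the shedding of receptor tyrosine kinases and resistance to kinase inhibitors, and neither agent is directed at the enzymes described here.

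Purine nucleotides are built stepwise on phosphoribosyl pyrophosphate (PRPP) to inosine monophosphate (IMP), which is then turned into AMP or GMP. Pyrimidines are built as a ring that is joined to PRPP afterwards, giving UMP and then CTP and the deoxythymidine nucleotides. Serine made from glycolytic intermediates passes a carbon unit to tetrahydrofolate in mitochondria and cytosol, and the loaded folates supply carbons of the purine ring and the methyl group of thymidylate. In proliferating cells these genes are known targets of MYC, which binds E-boxes with its partner MAX, of E2F factors for the deoxynucleotide genes, and of ATF4 for the serine and mitochondrial folate genes. MEK and ERK signalling is known to raise and stabilise MYC.

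PD325901 lowered most of the group. Of the 33 measured members, 20 were lower in PD325901 cells than in control cells, 2 were higher and 11 were not called (limma across 18132 genes, adjusted p under 0.05). Over all genes, 12.3% were called lower and 22.8% higher. The median log2 change of the members was -0.49, against 0.08 over all genes. The 3 PD325901 arrays lay below all 4 control arrays for 21 members, a pattern shown by 14.8% of all genes, and above all of them for 4 members (IMPDH2, CTPS2, RRM2B and SLC19A1), a pattern shown by 25.6% of all genes. CTPS1 and SLC29A1 were lower by more than 2-fold, and 16 of the 20 fell by at least 0.5 on the log2 scale. BB94 cells differed little from control cells, with 1 member lower and 32 not called. Scaling mattered for the direction over all genes. With each array centred on its median over genes, 5076 genes were lower and 2353 higher under PD325901, in place of 2223 and 4142, and the median change of all genes went to -0.17. Centring over probe sets gave 2964 lower and 3292 higher, and cyclic loess gave 3206 and 3464. The members called lower numbered 27, 23 and 22 under these 3 scalings, and those called higher 0, 0 and 1. The arrays measure bulk RNA, so fewer cells that express a gene and less of its RNA per cell cannot be told apart.

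**Figure D1:**
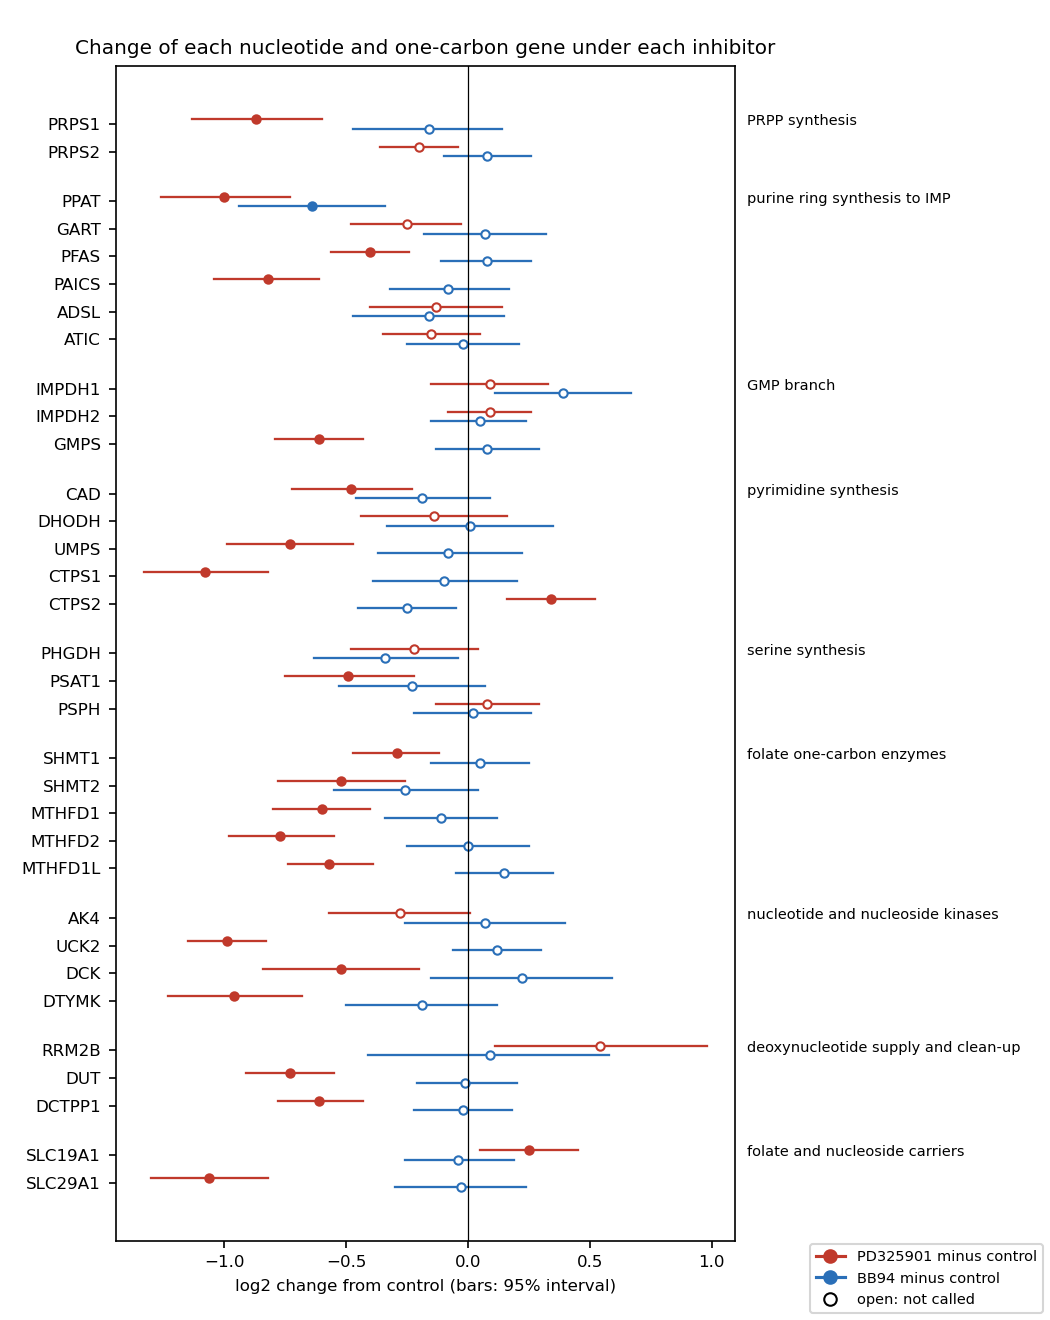
Log2 change from control (horizontal axis) of each measured gene under PD325901 (red) and BB94 (blue), grouped by branch. Points are limma estimates, bars are 95% intervals and filled points passed an adjusted p under 0.05; 20 red points are filled left of 0, 2 right of it, and 1 blue point (PPAT) is filled.

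The level on each array is an RMA value on the log2 scale. Background was set on each array at its brightest background control probe set, between 6.02 and 6.50. All members but DHODH and SLC19A1 were above it on every array. Levels of different genes come from different probe sets and are not compared with each other. The median level of the members, each taken minus its control mean, was -0.45, -0.49 and -0.50 on the PD325901 arrays and -0.01 and -0.04 on the BB94 arrays. On the control arrays it was -0.09, -0.07, 0.06 and 0.05. The 3 PD325901 arrays were therefore close to each other and far below the rest. Mesenchymal markers such as VIM and AXL averaged 13.94 and 13.77 on the PD325901 arrays, 14.01 and 13.77 on the BB94 arrays, and 14.03 and 13.71 on the control arrays, whereas ESR1, PGR and CDH1 were below background on all arrays. EPCAM and FOXA1, which are luminal or epithelial markers, were above background everywhere, with 9.56 and 10.76 on the PD325901 arrays, 9.30 and 10.18 on the BB94 arrays, and 9.42 and 10.29 on the control arrays. The 14 line markers did not all hold their level: KRT18 and MSN were lower under PD325901 by 1.14 (adjusted p = 0.00158) and 0.31 (adjusted p = 0.0081) on the log2 scale. GATA3, ERBB2 and KRT8 were higher by 0.90 (adjusted p = 5.6e-05), 0.82 (adjusted p = 2.5e-04) and 0.58 (adjusted p = 0.00517), as was CDH1 below background (adjusted p = 6.0e-06). Their part in the results was not tested. Of 11 measured markers of other cell types, CD68 and COL1A1 were above background on all arrays and the other markers were below it on all arrays, and 1 of the 11 was called higher (LUM, below background throughout). The 3′ minus 5′ signal of ACTB, which rises with RNA degradation, was 3.50 to 4.15 on the PD325901 arrays, 3.91 to 4.22 on the BB94 arrays and 2.96 to 3.89 on the control arrays, and its part in the results was not tested.

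**Figure D2:**
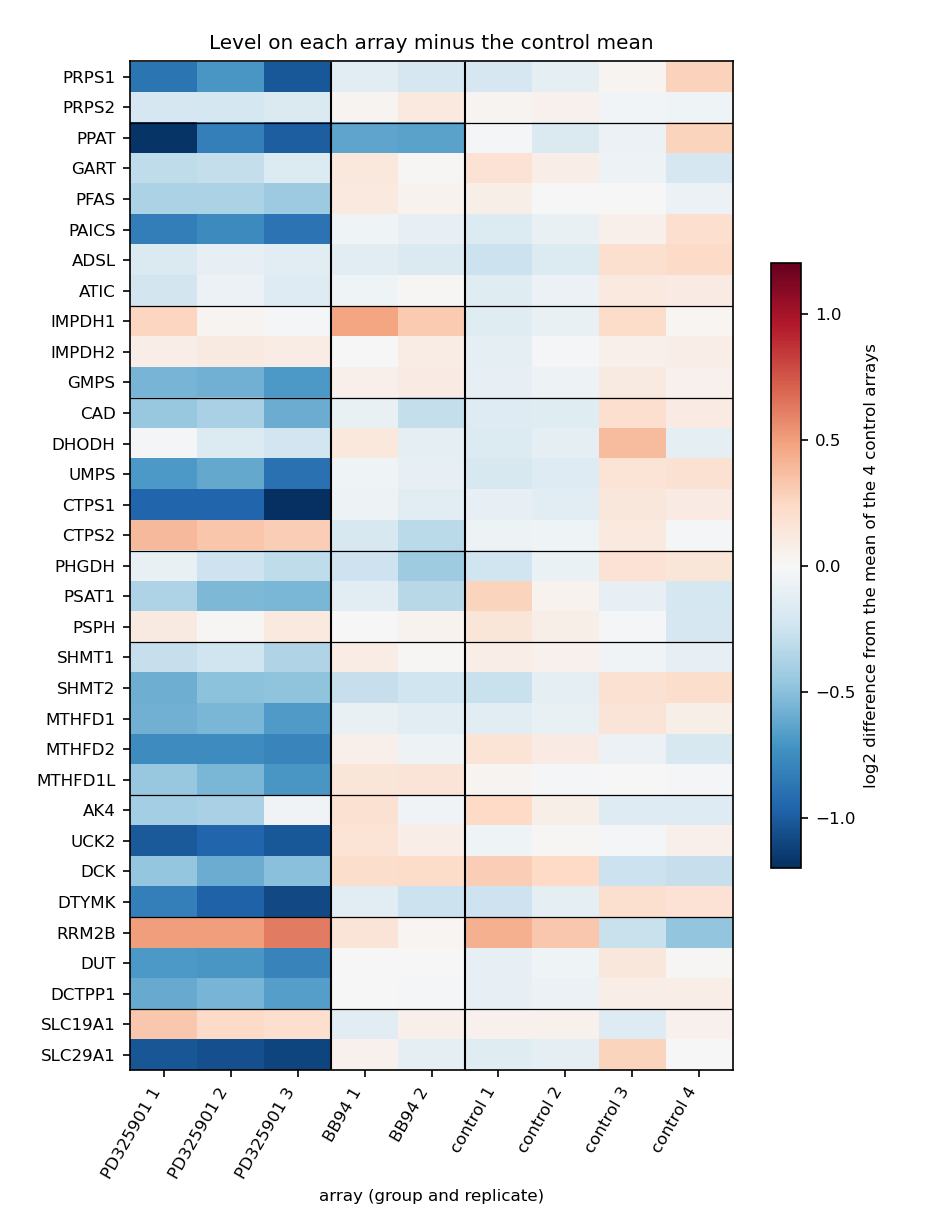
Level of each gene (rows, ordered by branch) on each array (columns), as the log2 difference from the mean of the 4 control arrays, with blue lower and red higher. The 3 PD325901 columns are blue for most rows, with a median over the members of -0.45 to -0.50, whereas the BB94 columns are pale except in rows such as PPAT and IMPDH1.

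Promoter sequences are shown because many of the members carry a motif of the factors named above close to a transcription start. RefSeq windows on GRCh38.p14, each holding 250 bases before a start and a short stretch after it, were given for 29 of the 34 genes. CACGTG, the E-box of MYC and MAX, was found in 12 of the 29 (41.4%), compared with 8.77% of 27305 genes with a window and 10.9% of 14425 genes that also had a probe set here. The E2F form, written TTTNNCGC with C or G at each N, was found in 5 (17.2%), compared with 3.99% of all genes with a window and 5.53% of the array's genes. TGATGCAA, a composite element bound by ATF4, was found in 1 (3.45%), compared with 1.08% and 0.943%. CCGGAAGT, an ETS site, was found in 2 (6.90%), compared with 4.95% and 7.20%. Both strands were searched and no motif contains another. A gene was counted if any of its windows held the motif, so genes with several windows had more chances of a match. The 30-base stretches below, 5′ to 3′ on the gene's own strand, hold the E-box in capitals for 6 members that were lower under PD325901 and for ATIC, which was not called, followed by the E2F forms of DUT and the ATF4 element of MTHFD1L. The E-box of PAICS, also lower, is the same 6 bases as that of PPAT read from the other strand.
PPAT E-box (chr4:56435780-56435809, minus strand): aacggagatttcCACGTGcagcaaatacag
MTHFD1 E-box (chr14:64388326-64388355, plus strand): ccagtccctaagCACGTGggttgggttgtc
MTHFD1L E-box (chr6:150866320-150866349, plus strand): cacgcccggctcCACGTGcgcagccggccg
DCK E-box (chr4:70993521-70993550, plus strand): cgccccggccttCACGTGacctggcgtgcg
DCTPP1 E-box (chr16:30429792-30429821, minus strand): ggagggttcctcCACGTGgtcgggaagcgg
SLC29A1 E-box (chr6:44219365-44219394, plus strand): cagtgCACGTGctcccaggtctcagggagg
ATIC E-box (chr2:215312001-215312030, plus strand): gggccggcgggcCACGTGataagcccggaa
DUT E2F forms (chr15:48332152-48332181, plus strand): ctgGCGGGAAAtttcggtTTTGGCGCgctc
MTHFD1L ATF4 element (chr6:150866346-150866375, plus strand): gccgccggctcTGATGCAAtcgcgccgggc
The flanks differ from site to site outside the 6 shared bases. Of the 11 measured members with an E-box, 7 were lower under PD325901 with a median change of -0.57, and of the 17 measured members with a window but no E-box, 12 were lower with a median of -0.49. Of the 5 measured members with the E2F form, DUT among them, 2 were lower with a median of -0.25, and of the 23 without it 17 were lower with a median of -0.60. Members that were lower occurred with and without each of these 2 motifs. A match describes these letters in these windows and is not evidence of binding.

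PRPP is used at the start of the purine route and at the joining of the pyrimidine ring. PRPS1, a PRPP synthetase, read 9.77, 9.95 and 9.63 on the PD325901 arrays, 10.52 and 10.45 on the BB94 arrays, and 10.45, 10.54, 10.68 and 10.92 on the control arrays. The PD325901 arrays were below every other array. PRPS1 was 1.82-fold lower than in control cells (log2 change -0.87 ± 0.12, SE, adjusted p = 2.4e-04). Its paralogue PRPS2 read 13.27, 13.26 and 13.30 on the PD325901 arrays, 13.51 and 13.59 on the BB94 arrays, and 13.51, 13.52, 13.44 and 13.42 on the control arrays. The PD325901 arrays again lay below all controls, but the change was small and was not called (-0.20, 95% interval -0.36 to -0.04, adjusted p = 0.0558). PRPS2 was called lower under 7 of 21 alternative settings. Its dimmer probe set was below background on 2 of the 3 PD325901 arrays and gives no size.

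In the purine ring pathway to IMP, 3 of 6 genes were lower under PD325901 and none was higher. PPAT, which commits PRPP to purine synthesis, read 11.33, 11.68 and 11.52 on the PD325901 arrays, 11.87 and 11.86 on the BB94 arrays, and 12.49, 12.33, 12.43 and 12.77 on the control arrays. At this probe set both treated groups lay below all controls, and PD325901 cells lay below BB94 cells. PPAT was 1.99-fold lower in PD325901 cells (95% interval of the log2 change -1.26 to -0.73, adjusted p = 7.3e-05). PAICS, the carboxylase and ligase that act on the closed imidazole ring, read 11.85, 11.92 and 11.80 on the PD325901 arrays, 12.63 and 12.58 on the BB94 arrays, and 12.52, 12.59, 12.74 and 12.88 on the control arrays. It was 1.77-fold lower in PD325901 cells (-0.82 ± 0.10, adjusted p = 6.6e-05), with no overlap between the PD325901 arrays and the others. The other PAICS probe set gave a smaller change (-0.52, adjusted p = 0.00189 over all probe sets). PPAT and PAICS lie head to head on chromosome 4, the start of PPAT at position 56435615 on the minus strand and a listed start of PAICS 137 bases away at 56435752 on the plus strand, so the E-box printed above lies in the windows of both. The 120 bases next to the PPAT start, within the stretch between these 2 starts, hold none of the motifs searched and are printed below. Both genes were lower under PD325901. Under BB94 PAICS was not called (-0.08, adjusted p = 0.912), and PPAT was called lower at its brightest probe set, under 6 of 21 alternative settings. The second PPAT probe set did not show a reduction under BB94 (0.17, adjusted p = 0.851 over all probe sets), its BB94 arrays lying among the controls. Whether these bases act on either gene was not tested.
PPAT and PAICS (chr4:56435616-56435735, minus strand): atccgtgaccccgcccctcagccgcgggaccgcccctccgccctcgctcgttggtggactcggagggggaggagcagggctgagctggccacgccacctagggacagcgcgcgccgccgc
PFAS, which makes formylglycinamidine ribotide, read 12.81, 12.81 and 12.75 on the PD325901 arrays, 13.30 and 13.23 on the BB94 arrays, and 13.26, 13.18, 13.19 and 13.12 on the control arrays. It was lower by 0.40 on the log2 scale (SE 0.07, adjusted p = 0.00137). The dimmer PFAS probe set above background on all arrays gave a larger change (-0.85, adjusted p = 3.4e-04 over all probe sets). GART, the trifunctional enzyme that uses a formyl folate, read 11.84, 11.86 and 11.98 on the PD325901 arrays, 12.27 and 12.16 on the BB94 arrays, and 12.32, 12.23, 12.09 and 11.95 on the control arrays. One control array lay among the PD325901 arrays, and the change of -0.25 was not called (adjusted p = 0.0758). GART was called lower under 9 of 21 alternative settings, among them leaving out control replicate 4 (-0.32, adjusted p = 0.0205), over a range of adjusted p from 0.00123 to 0.266. Of the 3 dimmer GART probe sets above background on all arrays, 2 were called lower, by 0.48 and 0.53 on the log2 scale, and 1 was not called. A further one was below background on all PD325901 arrays. ADSL and ATIC, which act later in the route, changed by -0.13 (95% interval -0.40 to 0.14) and -0.15 (-0.35 to 0.05) and were not called.

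The last steps to GMP were uneven. IMPDH1 and IMPDH2, the dehydrogenases that oxidise IMP, had log2 changes of 0.09 each under PD325901 (95% intervals -0.15 to 0.33 and -0.08 to 0.26) and were not called, with changes of -0.16 each when arrays were centred on their median over genes. IMPDH2 read 13.41, 13.44 and 13.42 on the PD325901 arrays, 13.34 and 13.42 on the BB94 arrays, and 13.22, 13.31, 13.39 and 13.41 on the control arrays, so the highest control array and the lowest PD325901 array read the same to 2 decimals. All 6 of its probe sets were within 0.09 of no change. GMPS, the GMP synthase, read 11.52, 11.50 and 11.39 on the PD325901 arrays, 12.14 and 12.17 on the BB94 arrays, and 11.98, 12.01, 12.18 and 12.13 on the control arrays. The PD325901 arrays stood clear of all others, and GMPS was 1.52-fold lower (-0.61 ± 0.08, adjusted p = 1.7e-04).

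Pyrimidine synthesis held both the most lowered member and one of the 2 called higher. CTPS1, a CTP synthase, read 10.61, 10.61 and 10.23 on the PD325901 arrays, 11.50 and 11.42 on the BB94 arrays, and 11.46, 11.42, 11.69 and 11.66 on the control arrays. It was 2.11-fold lower in PD325901 cells (-1.08 ± 0.12, adjusted p = 3.5e-05), and its other 2 probe sets above background on all arrays were lower by 1.18 and 1.19 on the log2 scale. The third was below background on all PD325901 arrays. CTPS2, the second CTP synthase, read 11.50, 11.44 and 11.41 on the PD325901 arrays, 10.92 and 10.79 on the BB94 arrays, and 11.05, 11.06, 11.23 and 11.10 on the control arrays. Its PD325901 arrays lay above all others, and it was 1.27-fold higher than in control cells (0.34 ± 0.08, adjusted p = 0.00616). The other CTPS2 probe set did not show this (-0.06, adjusted p = 0.685 over all probe sets), and the call was lost with the mean of both probe sets (0.14, adjusted p = 0.194). UMPS, which closes the route to UMP, read 10.92, 10.99 and 10.71 on the PD325901 arrays, 11.55 and 11.51 on the BB94 arrays, and 11.41, 11.45, 11.77 and 11.79 on the control arrays. It was 1.66-fold lower (-0.73 ± 0.12, adjusted p = 6.1e-04), with its other 2 probe sets lower by 0.73 and 0.79 on the log2 scale. CAD, the enzyme of the first 3 pyrimidine steps, read 9.35, 9.41 and 9.21 on the PD325901 arrays, 9.71 and 9.52 on the BB94 arrays, and 9.65, 9.66, 10.00 and 9.90 on the control arrays. CAD was lower by 0.48 on the log2 scale (SE 0.11, adjusted p = 0.00576). DHODH, the mitochondrial dihydroorotate dehydrogenase, was not above background on any array, so no level or change is drawn from its probe set.

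**Figure D3:**
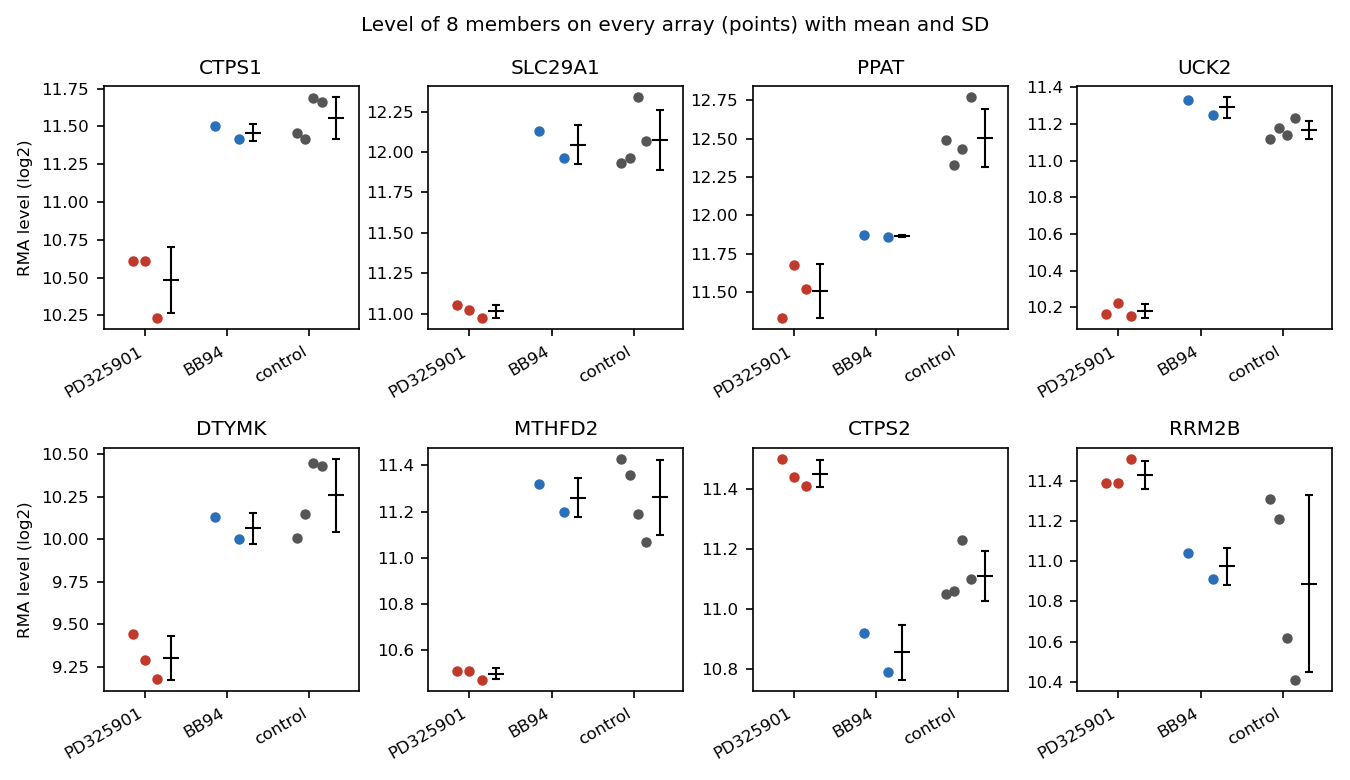
RMA level on the log2 scale (vertical axis, a separate scale for each gene) of 8 genes on each array, with PD325901, BB94 and control from left to right; points are arrays and the bars give the mean and SD. In CTPS1, SLC29A1, PPAT, UCK2, DTYMK and MTHFD2 the PD325901 points lie below all others, in CTPS2 above all others, and in RRM2B control replicates 1 and 2 (11.31 and 11.21) sit close to the PD325901 points.

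In serine synthesis, PSAT1 was lower and the 2 other enzymes were not called. PSAT1, the phosphoserine aminotransferase, read 10.91, 10.75 and 10.74 on the PD325901 arrays, 11.16 and 10.95 on the BB94 arrays, and 11.55, 11.33, 11.19 and 11.07 on the control arrays. The PD325901 arrays lay below all controls, by a log2 change of -0.49 ± 0.12 (adjusted p = 0.00792). The brightest probe set gave the smallest change of the 6 above background on all arrays: the other 5 were lower by 0.86 to 1.08 on the log2 scale. The remaining 2 were below background on all PD325901 arrays. PHGDH, the first enzyme of the route, read 10.39, 10.23 and 10.18 on the PD325901 arrays, 10.23 and 10.06 on the BB94 arrays, and 10.24, 10.40, 10.66 and 10.63 on the control arrays. The groups overlapped, and the PD325901 change of -0.22 was not called (95% interval -0.48 to 0.04, adjusted p = 0.194). PSPH, the last enzyme, changed by 0.08 (-0.13 to 0.29) and was not called either.

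The 5 folate one-carbon enzymes were all lower in PD325901 cells, with a median log2 change of -0.57. MTHFD2, a mitochondrial methylene-tetrahydrofolate dehydrogenase, read 10.51, 10.51 and 10.47 on the PD325901 arrays, 11.32 and 11.20 on the BB94 arrays, and 11.43, 11.36, 11.19 and 11.07 on the control arrays. It was 1.70-fold lower (-0.77 ± 0.10, adjusted p = 1.3e-04), and its other 4 probe sets were lower by 0.93 to 1.11 on the log2 scale. MTHFD1L, which releases formate in mitochondria, read 10.28, 10.19 and 10.04 on the PD325901 arrays, 10.88 and 10.89 on the BB94 arrays, and 10.77, 10.72, 10.74 and 10.72 on the control arrays. Its control arrays hardly differed from each other, and PD325901 cells were 1.48-fold lower (-0.57 ± 0.08, adjusted p = 2.2e-04). MTHFD1, the trifunctional cytosolic enzyme, read 11.25, 11.28 and 11.15 on the PD325901 arrays, 11.74 and 11.70 on the BB94 arrays, and 11.70, 11.74, 11.98 and 11.90 on the control arrays. It was 1.52-fold lower (-0.60 ± 0.09, adjusted p = 3.5e-04). SHMT2, the mitochondrial serine hydroxymethyltransferase, read 10.71, 10.81 and 10.82 on the PD325901 arrays, 11.02 and 11.06 on the BB94 arrays, and 11.03, 11.18, 11.48 and 11.51 on the control arrays. The PD325901 arrays lay below all others, and SHMT2 was 1.43-fold lower than in control cells (-0.52 ± 0.12, adjusted p = 0.00567). SHMT1, its cytosolic counterpart, read 10.96, 11.00 and 10.88 on the PD325901 arrays, 11.33 and 11.25 on the BB94 arrays, and 11.32, 11.29, 11.20 and 11.14 on the control arrays. It was lower by 0.29 on the log2 scale (SE 0.08, adjusted p = 0.0147). That call was lost without PD325901 replicate 3 (adjusted p = 0.0682).

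Of the 4 measured kinases, 3 were lower. UCK2, which phosphorylates uridine and cytidine, read 10.16, 10.22 and 10.15 on the PD325901 arrays, 11.33 and 11.25 on the BB94 arrays, and 11.12, 11.18, 11.14 and 11.23 on the control arrays. With a spread this narrow in every group, it had the smallest adjusted p of the members at a 1.99-fold reduction (-0.99 ± 0.07, adjusted p = 2.4e-06). DTYMK, the thymidylate kinase, read 9.44, 9.29 and 9.18 on the PD325901 arrays, 10.13 and 10.00 on the BB94 arrays, and 10.01, 10.15, 10.45 and 10.43 on the control arrays. It was 1.94-fold lower (-0.96 ± 0.12, adjusted p = 1.3e-04). DCK, the deoxycytidine kinase of the salvage route, read 12.00, 11.87 and 11.96 on the PD325901 arrays, 12.68 and 12.69 on the BB94 arrays, and 12.76, 12.70, 12.21 and 12.19 on the control arrays. The control arrays split in pairs, and all of them were above the PD325901 arrays. DCK was 1.43-fold lower (-0.52 ± 0.15, adjusted p = 0.017), a call that was lost without PD325901 replicate 2 (adjusted p = 0.0665). Its 2 other probe sets above background on all arrays were lower by 0.53 and 1.39 on the log2 scale, and 2 more were below background on all PD325901 arrays. AK4, a mitochondrial adenylate kinase, read 7.21, 7.23 and 7.58 on the PD325901 arrays, 7.80 and 7.58 on the BB94 arrays, and 7.86, 7.69, 7.46 and 7.46 on the control arrays. The groups overlapped and the change of -0.28 was not called (adjusted p = 0.135).

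Among the genes that supply or clean up deoxynucleotides, DUT and DCTPP1 were lower and RRM2B was not called. DUT, the dUTPase that keeps uracil out of DNA, read 10.04, 10.03 and 9.93 on the PD325901 arrays, 10.72 and 10.72 on the BB94 arrays, and 10.63, 10.68, 10.86 and 10.74 on the control arrays. It was 1.65-fold lower (-0.73 ± 0.08, adjusted p = 4.7e-05). DCTPP1, a dCTP pyrophosphatase, read 12.07, 12.12 and 12.02 on the PD325901 arrays, 12.67 and 12.66 on the BB94 arrays, and 12.58, 12.61, 12.76 and 12.76 on the control arrays. The PD325901 arrays lay below the others without overlap, at 1.52-fold lower (-0.61 ± 0.08, adjusted p = 1.5e-04). RRM2B, the p53-inducible subunit of ribonucleotide reductase, read 11.39, 11.39 and 11.51 on the PD325901 arrays, 11.04 and 10.91 on the BB94 arrays, and 11.31, 11.21, 10.62 and 10.41 on the control arrays. Its change of 0.54 was not called (95% interval 0.11 to 0.98, adjusted p = 0.0536), though its PD325901 arrays lay above all controls. The size depended on the control pair: it was 0.17 against replicates 1 and 2 alone (adjusted p = 0.155) and 0.91 against replicates 3 and 4 alone (adjusted p = 1.0e-04). It was called higher under 5 of 21 alternative settings.

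The 2 carriers differed. SLC29A1, the equilibrative nucleoside transporter ENT1, read 11.05, 11.02 and 10.97 on the PD325901 arrays, 12.13 and 11.96 on the BB94 arrays, and 11.93, 11.96, 12.34 and 12.07 on the control arrays. It was 2.08-fold lower in PD325901 cells (-1.06 ± 0.11, adjusted p = 2.3e-05), and its other 2 probe sets were below background. SLC19A1, the reduced folate carrier, was the other member called higher (adjusted p = 0.0496). It was below background on every array, at 5.55, 5.46 and 5.43 with PD325901, 5.09 and 5.29 with BB94, and 5.28, 5.28, 5.07 and 5.28 in controls, so no fold is given. That call was lost under 17 of 21 alternative settings.

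**Figure D4:**
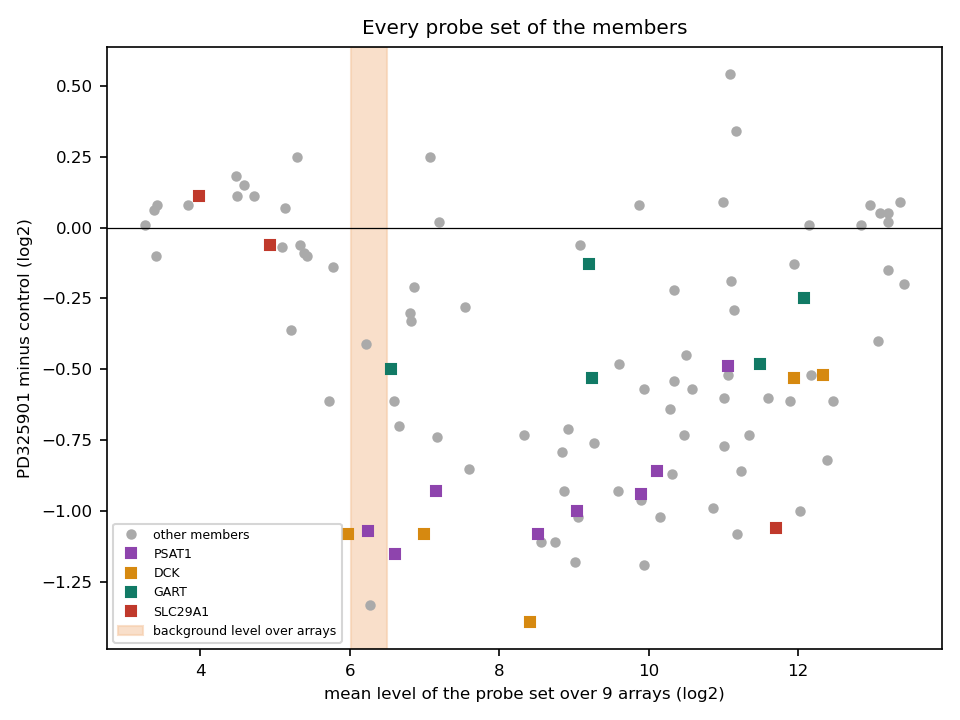
Mean level over the 9 arrays (horizontal axis, log2) and PD325901 minus control (vertical axis, log2) of each of the 104 probe sets of the measured genes, with those of 4 genes coloured and the background level of the arrays shaded. Of the 74 probe sets above background on all arrays, 51 were called lower and 1 higher, and the probe sets of PSAT1 and DCK spread over different sizes of change in the same direction.

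The members were read at 1 probe set each, and 25 of the 33 had more than 1. Over all 104 probe sets, tested among all probe sets of the array, 61 were called lower and 1 was called higher, against 12.1% lower and 17.2% higher over all probe sets. Of the 74 that were above background on all 9 arrays, 51 were called lower and 1 higher, against 19.6% and 23.1% of all probe sets that bright. Probe sets of a gene share its transcripts and are not independent. The brightest probe set gave a smaller change than the dimmer ones in members such as PSAT1 and MTHFD2, and no member called lower had another probe set called higher.

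BB94 left the group near the control level. The 33 log2 changes ran from -0.64 to 0.39 with a median of -0.02, the same median as over all genes. PPAT was the 1 member called, 1.56-fold lower than in control cells (-0.64 ± 0.13, adjusted p = 0.0461). No member was called higher. Over all genes, 1.09% were called lower and 0.491% higher. The second PPAT probe set did not show this difference, reading 11.67 and 11.64 on the BB94 arrays and 11.86, 11.65, 11.10 and 11.33 on the control arrays, which is a change of 0.17. The call held under 6 of 21 alternative settings, over which its adjusted p ranged from 0.015 to 0.52. At an unadjusted p under 0.05, 4 of the 33 members differed, as did 10.9% of all genes: PPAT, IMPDH1 (0.39, adjusted p = 0.231), CTPS2 (-0.25, adjusted p = 0.296) and PHGDH (-0.34, adjusted p = 0.366). With 2 arrays, the intervals for BB94 are wide, for example -0.63 to -0.04 for PHGDH.

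Set directly against BB94, PD325901 lowered 17 members, raised 1 and left 15 not called. Over all genes, 10.2% were lower and 21.0% higher in this comparison. It uses the same PD325901 arrays as the comparison with control, so the 2 sets of calls are not independent. UCK2 was lowest relative to BB94 (-1.11 ± 0.09, adjusted p = 5.4e-06), followed by SLC29A1 (-1.03 ± 0.13, adjusted p = 1.3e-04) and CTPS1 (-0.98 ± 0.14, adjusted p = 3.0e-04). CTPS2 was higher (0.59 ± 0.09, adjusted p = 6.9e-04). Its other probe set did not show this, averaging 9.05 in both PD325901 and BB94 cells. The CTPS2 call was also lost with arrays centred on their median over genes (0.27, adjusted p = 0.0506). At the brightest probe set, PPAT, CAD, PSAT1 and SHMT2 were called lower against control but not against BB94. In each of these 4 the BB94 arrays then averaged lower than the control arrays, and 1 of them, PPAT, was called in BB94. The second PPAT probe set was called lower against BB94 (-1.03, adjusted p = 0.00239 over all probe sets). So were the dimmer PSAT1 probe sets above background on all arrays (-0.60 to -0.95, adjusted p at most 0.02). The dimmer SHMT2 probe sets were not called (-0.27, adjusted p at least 0.235). PRPS2 was called lower against BB94 (-0.28 ± 0.09, adjusted p = 0.0308) though not against control. The call against BB94 was lost under 9 of 19 alternative settings, among them leaving out either BB94 array (adjusted p = 0.0728 and 0.19) or any 1 PD325901 array (adjusted p = 0.0613 to 0.095).

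The controls were the most variable group. The median SD of a member was 0.07 over PD325901 arrays, 0.06 over BB94 arrays and 0.16 over control arrays. Control replicates 3 and 4 differed from replicates 1 and 2 by a median of 0.24 over the members and 0.20 over all genes, irrespective of sign, and 21 of the 33 members (63.6%) were higher in replicates 3 and 4, against 33.6% of all genes. No batch is given in the labels, so a technical source of this split could not be checked. Against replicates 1 and 2 alone 23 members were called lower under PD325901 and 1 higher, with 14.6% of all genes lower and 22.4% higher. Against replicates 3 and 4 alone 23 were lower and 3 higher, with 13.9% and 32.1% of all genes. Of the 20 members lower in the main comparison, 18 were called lower under all 21 alternative settings, the exceptions being SHMT1 and DCK as given above.

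**Figure D5:**
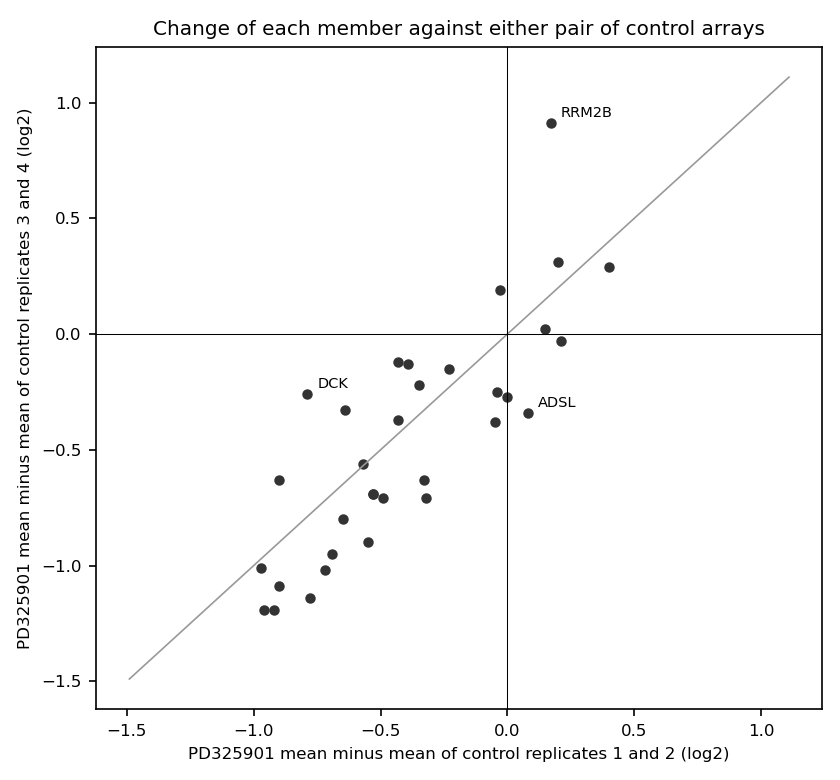
PD325901 mean minus the mean of control replicates 1 and 2 (horizontal axis) and of control replicates 3 and 4 (vertical axis), both in log2 units, for each measured gene (points), with the line of equality. Most points lie below 0 on both axes, and RRM2B, DCK and ADSL are among those farthest from the line.

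Other genes of the same pathways were called in both directions. In 3 further lists of enzymes and carriers, 20 of 85 measured genes were lower and 19 higher under PD325901, with a median change of 0.05, against 12.3% lower, 22.8% higher and a median of 0.08 over all genes. Among other purine and pyrimidine enzymes 11 of 44 were lower and 9 higher. The ribonucleotide reductase subunits were among the lowest. RRM1, the large subunit, read 9.48, 9.50 and 9.37 on the PD325901 arrays, against 10.78, 10.76, 10.89 and 10.79 on the control arrays (-1.35 ± 0.08, adjusted p = 3.4e-07). RRM2, the S-phase small subunit, read 12.57, 12.42 and 12.33 on the PD325901 arrays, against 13.74, 13.70, 13.64 and 13.64 on the control arrays (-1.24 ± 0.08, adjusted p = 1.1e-06). Both stood clear of the controls. TYMS, the thymidylate synthase, and TK1, the S-phase thymidine kinase, were named after their values were seen and were lower by 0.85 (adjusted p = 1.1e-05) and 0.80 (adjusted p = 3.2e-04) on the log2 scale. NME3 and ADA, named in the same way, went the other way. They were higher by 1.04 (adjusted p = 6.2e-06) and 0.92 (adjusted p = 2.7e-05). NT5E, the ectonucleotidase CD73, was 2.59-fold lower (-1.37 ± 0.10, adjusted p = 2.5e-06). ADSS1, the muscle-type adenylosuccinate synthase, was at least 2.46-fold higher (adjusted p = 4.6e-06), being below background in all controls.

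Of the other folate, glycine and methionine enzymes, 6 of 26 were lower and 7 higher, against 12.3% and 22.8% of all genes. The genes named next were picked by size of change and were all higher. The largest decrease in this list was that of SFXN2 (-0.77 ± 0.08, adjusted p = 2.1e-05). FOLR1, a folate receptor, was at least 3.76-fold higher in PD325901 cells (adjusted p = 1.2e-07), at 7.88, 8.19 and 8.29 on the PD325901 arrays and not above background on the control arrays. AMT, of the glycine cleavage system, was 3.50-fold higher (1.81 ± 0.14, adjusted p = 4.4e-06), and CTH, the cystathionine gamma-lyase, was 1.79-fold higher (0.84 ± 0.15, adjusted p = 0.00109). MAT1A, the liver methionine adenosyltransferase, was called higher (adjusted p = 3.3e-04) below background on all arrays. Among the other nucleoside and serine carriers 3 of 15 were lower and 3 higher. SLC29A3, the intracellular nucleoside transporter ENT3, was 3.77-fold higher (1.91 ± 0.07, adjusted p = 3.5e-08), whereas its paralogue SLC29A1 was lower as given above. SLC1A5, a glutamine and neutral amino acid carrier, was 2.25-fold lower (-1.17 ± 0.15, adjusted p = 1.1e-04), and SLC7A11, the cystine carrier, was 1.33-fold higher (0.41 ± 0.10, adjusted p = 0.00612). SLC43A2 was called higher (adjusted p = 9.2e-05) below background on all arrays.

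The RNA of the regulators named above was also read. The counts by list below stand beside 12.3% of all genes called lower and 22.8% called higher under PD325901. In lists this short, counts near these shares say nothing about the list. MYC read 9.10, 9.14 and 9.48 on the PD325901 arrays, 11.03 and 10.97 on the BB94 arrays, and 11.20, 11.22, 10.29 and 9.74 on the control arrays. It was lower in PD325901 cells than in every control, at 2.59-fold (-1.37 ± 0.31, adjusted p = 0.00567), with the controls spread between 9.74 and 11.22. Of the 10 MYC family genes 1 was lower and 3 were higher: MXI1 (0.87 ± 0.14, adjusted p = 6.2e-04) and MNT (0.65 ± 0.08, adjusted p = 7.7e-05), which are MAX partners that repress, and MYCL, at least 1.25-fold higher (adjusted p = 4.4e-06). In the E2F and RB family 8 of 13 were lower and 1 higher, with a median change of -0.59. E2F1, an activator of S-phase genes, was 3.03-fold lower (-1.60 ± 0.10, adjusted p = 9.3e-07), and E2F7, a repressor of the family, was 2.31-fold lower (-1.21 ± 0.24, adjusted p = 0.00256). RBL1 (p107) and E2F8 were below background on all PD325901 arrays and were at least 1.97-fold (adjusted p = 2.0e-06) and at least 1.13-fold (adjusted p = 4.7e-05) lower, E2F8 being above background on 2 of the 4 control arrays. ATF4 itself was not called (-0.15, adjusted p = 0.199), and 2 of 18 measured genes in its list were lower and 2 higher. DDIT4, an mTORC1 inhibitor, was 13.9-fold higher in PD325901 cells (3.79 ± 0.10, adjusted p = 3.2e-09). CEBPB was 1.70-fold higher (adjusted p = 0.00139), and VLDLR and GARS1 were 1.43-fold (adjusted p = 8.4e-04) and 1.32-fold (adjusted p = 0.00375) lower. Of 10 measured p53 targets, 3 were lower and 4 higher. BBC3 (PUMA), TP53I3 and GDF15 were higher by 1.16 (adjusted p = 2.0e-05), 0.99 (adjusted p = 1.5e-04) and 0.82 (adjusted p = 1.8e-04) on the log2 scale, whereas CDKN1A (p21) and MDM2 were lower by 0.71 (adjusted p = 4.4e-04) and 0.52 (adjusted p = 0.00722), and PLK3 was called lower below background (adjusted p = 0.0112). Over all these further lists and the marker lists 70 genes were called, and 0 of them changed sign under the 3 scalings above. Whether they kept their calls was not counted. Sizes did move: centring over genes took UPRT from 0.28 to 0.03 and SFXN1 from -0.36 to -0.61. The part of the regulators in the change of the metabolic genes was not tested.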

How the data were processed

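RNA from 9 cultures was hybridised to Affymetrix PrimeView arrays after NuGEN Applause labelling. Per the labels, the authors normalised with RMA in the R package affy, and the deposited values are log2 intensities per probe set. Of 49395 probe sets, 102 controls were left out. GEO's platform annotation gave 1 gene symbol to 44988 probe sets, several to 1832 and none listed to 2473. Probe sets with several symbols were not named. The probe set with the highest mean stood for a gene, giving 18132 genes.

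Groups were compared with limma 3.58.1 (lmFit and eBayes, R 4.3.3) in 1 fit of all 9 arrays with 6 residual degrees of freedom. Tests were two-sided with Benjamini-Hochberg adjustment over all genes. Calls need an adjusted p under 0.05. The fit was tested on simulated data. The p-values measure the spread between these arrays, whose number limits the precision. A change where 1 group is below background is given as a lower bound against the background level.

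The members and lists were chosen with earlier results of these data known. Per-array values are given for called members with a log2 change of at least 0.5, for members called with BB94, and otherwise for up to 2 members per branch with the largest change, and further members with called changes are added. From each other list, up to 4 called genes per comparison with PD325901 and up to 2 with BB94 are named by the size of change, among those whose groups do not overlap, and the regulators ATF4, MYC and E2F1 whatever their values. Alternatives were the probe set rule, a filter on low values, 3 normalizations, 2 variance models, the arrays in the fit, leaving out each replicate, either pair of controls and the replicate number as a block. Promoter windows are RefSeq's on GRCh38.p14.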

Additional observations from a re-analysis of the deposited data

Results flagged for a closer look

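In 2 of the 33 measured members 1 control array stood apart from the other 3, which chance gives in about 1 of 20 groups. DHODH read 6.21 on control replicate 3, against 5.66, 5.72 and 5.72 on the others, a gap of 0.892 of the range. SLC19A1 read 5.07 on control replicate 3, against 5.28 on each of the others, a gap of 0.968 of the range. Both probe sets were below background on all arrays.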

How the results depend on the processing

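Over 21 alternative settings 20 to 27 members were called under PD325901 (19 to 27 lower), 0 to 6 under BB94, and over 19 settings 15 to 26 for PD325901 against BB94. Centring arrays on their median over genes left 26 members lower and 0 higher than in BB94 cells. Over all genes, PD325901 against BB94 then gave 5025 lower and 1990 higher calls, centring over probe sets 3523 and 2471, and cyclic loess 2670 and 3041, in place of 1848 and 3804; BB94 against control gave 151 and 125, 149 and 217, and 224 and 149, in place of 197 and 89. Members called higher under PD325901, 2 in the main comparison, numbered 0 with the mean of probe sets and both centrings, 1 without collapse, with cyclic loess, with 2 groups alone, with the replicate block and with control replicates 1 and 2 alone, and 1 to 3 when leaving out a replicate (RRM2B was called without control replicate 1 or 2). Under BB94 the single call became 0 with the mean of probe sets, both centrings, array weights, 2 groups alone, the replicate block and control replicates 1 and 2 alone, and 0 to 1 when leaving out a replicate. Against control replicates 3 and 4 alone it became 6 (4 lower and 2 higher). Members higher than in BB94 numbered 2 with low genes filtered out and 3 with array weights or with 2 groups alone, instead of 1. The cause of these differences was not tested.

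Changes under PD325901 turned sign in 5 members. ADSL reached 0.08 with control replicates 1 and 2 alone. IMPDH1 went to -0.0049 with the mean of probe sets, -0.16 and -0.01 with centring over genes and over probe sets, and -0.03 with control replicates 3 and 4 alone. IMPDH2 went to -0.16 and -0.01 with the same centrings. PSPH went to -0.03 with the mean of probe sets, -0.17 and -0.02 with the centrings, and -0.03 with control replicates 1 and 2 alone. SLC19A1, called in the main comparison, went to -0.0008 with centring over genes. CTPS2 kept its sign but lost its call with both centrings (adjusted p = 0.409 and 0.0602).

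After each gene's group mean was subtracted, same-numbered arrays of PD325901 and control correlated by 0.05, -0.10 and -0.18 over all genes. Those of BB94 and control correlated by -0.19 and 0.12. Such deviations cancel within a group, so with this few arrays these values cannot show whether equal numbers pair the arrays. With the replicate block 22 members were called under PD325901 (21 lower and 1 higher), 0 under BB94 and 17 against BB94. Signal near background limits DHODH and SLC19A1, and 2 BB94 arrays limit that comparison.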

Other observations

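Values chosen after the data were seen follow. One of 4 MTHFD1L probe sets was higher in BB94 cells than in control cells (0.52, adjusted p = 0.0185 over all probe sets), whereas the brightest was not called (0.15, adjusted p = 0.655). DDIT4 was 2.58-fold higher in BB94 cells (1.37 ± 0.11, adjusted p = 2.1e-04), at 9.39 and 9.24 on the BB94 arrays and 8.03, 7.89, 8.09 and 7.76 on the control arrays. GDF15 was lower in BB94 cells (-0.82 ± 0.13, adjusted p = 0.00903), with 8.25 and 8.14 on the BB94 arrays and 8.83, 8.94, 9.31 and 8.98 on the control arrays, and higher in PD325901 cells as given above. XDH, the xanthine oxidoreductase of purine breakdown, was called higher with BB94 (adjusted p = 0.0173) below background on all arrays.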
